A study of Mus musculus with 56 samples.

Results

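The immediate early and Nr4a genes examined here were 10 named genes, Nr4a1, Nr4a2, Nr4a3, Fos, Jun, Junb, Egr1, Atf3, Ier2 and Crem, of the 18193 genes with a probe set of their own on the arrays. They were taken by name from the platform annotation, which gave 21 probe sets, and each gene was read from its probe set of highest mean. All 10 passed the filter on dim genes, as did 12351 genes in all. The RNA was from gastrocnemius, a fast muscle of the calf, in 55 female C57BL/6 mice on 56 expression arrays. Mice breathed 4% mainstream cigarette smoke, or air as sham exposure, through the nose for 2 hours a day on 5 days a week. Smoke and air groups were taken after 2, 12 and 24 weeks, each of 6 mice except smoke for 12 weeks with 7, and 6 untreated mice were taken at week 0. Both cessation groups, of 6 mice each, had 12 weeks of smoke and then 12 weeks labelled RA or FA, letters that nothing read here spells out. The protocol describes sham exposure for that second period without naming an arm. The groups called air here also carry FA in their labels, and none of them RA, so only the FA arm shares the label of the air groups. All mice were of 1 strain and sex, and the sources used here give neither the hour of collection nor the time since the last exposure.

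Immediate early genes are switched on within minutes of a stimulus, from transcription factors that already sit in the cell, and their messages are short-lived. In muscle they respond to contraction, stretch, stress hormones and handling of the tissue. Fos, Jun and Junb pair into the AP-1 transcription factor, Egr1 is a zinc finger factor, Atf3 a stress-induced factor of the ATF family and Ier2 a nuclear protein induced by serum. The Nr4a genes encode orphan nuclear receptors, and Nr4a1 (Nur77) is known in muscle as a regulator of glucose use. Crem encodes activators and repressors that bind cAMP response elements, among them the inducible repressor ICER.

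Levels are log2(value + 16) of the deposited intensity, so that 1 unit is a doubling of value + 16. In all arrays the fast muscle genes were high, with Acta1, skeletal actin, between 13.42 and 13.62 and Myh4, the fast myosin IIb, between 13.55 and 13.76. On 12 of the 56 arrays the mean of 11 measured lymphocyte markers of 14 listed was 9.01 to 11.8, and on the other 44 it did not exceed 7.02. These lymphocyte-high arrays were 1 in the untreated group, 3 in smoke for 24 weeks, 3 in cessation RA, 1 in cessation FA, 2 in smoke for 12 weeks, 1 in air for 2 weeks and 1 in air for 24 weeks. Of the 2 arrays of mouse G8, averaged in all tests, 1 was lymphocyte-high. In whole muscle, fewer cells of a type and less RNA per cell cannot be told apart. Results below are given for all 55 mice, and for some comparisons also for the 44 with an array that was not lymphocyte-high.

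Mice of the same group differed widely in most of these genes. The pooled within-group SD was 0.92 for Fos, 0.74 for Egr1, 0.70 for Atf3, 0.59 for Nr4a2 and 0.58 for Nr4a3, against a median of 0.21 over all genes tested. Fos stood at the 97.5th percentile of within-group SD, Egr1 at the 96.2nd and Atf3 at the 95.7th. Jun and Crem did not share this spread, with SDs of 0.21 and 0.20, at the 48.7th and 45.3rd percentiles. Among the 44 mice the SD of Fos was 0.91, at the 99.8th percentile. Between the highest and the lowest mouse, value + 16 differed 19.3-fold for Atf3, 17.9-fold for Fos, 11.2-fold for Egr1 and 6.52-fold for Nr4a2, but only 2.32-fold for Crem and 2.21-fold for Jun.

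**Figure D1:**
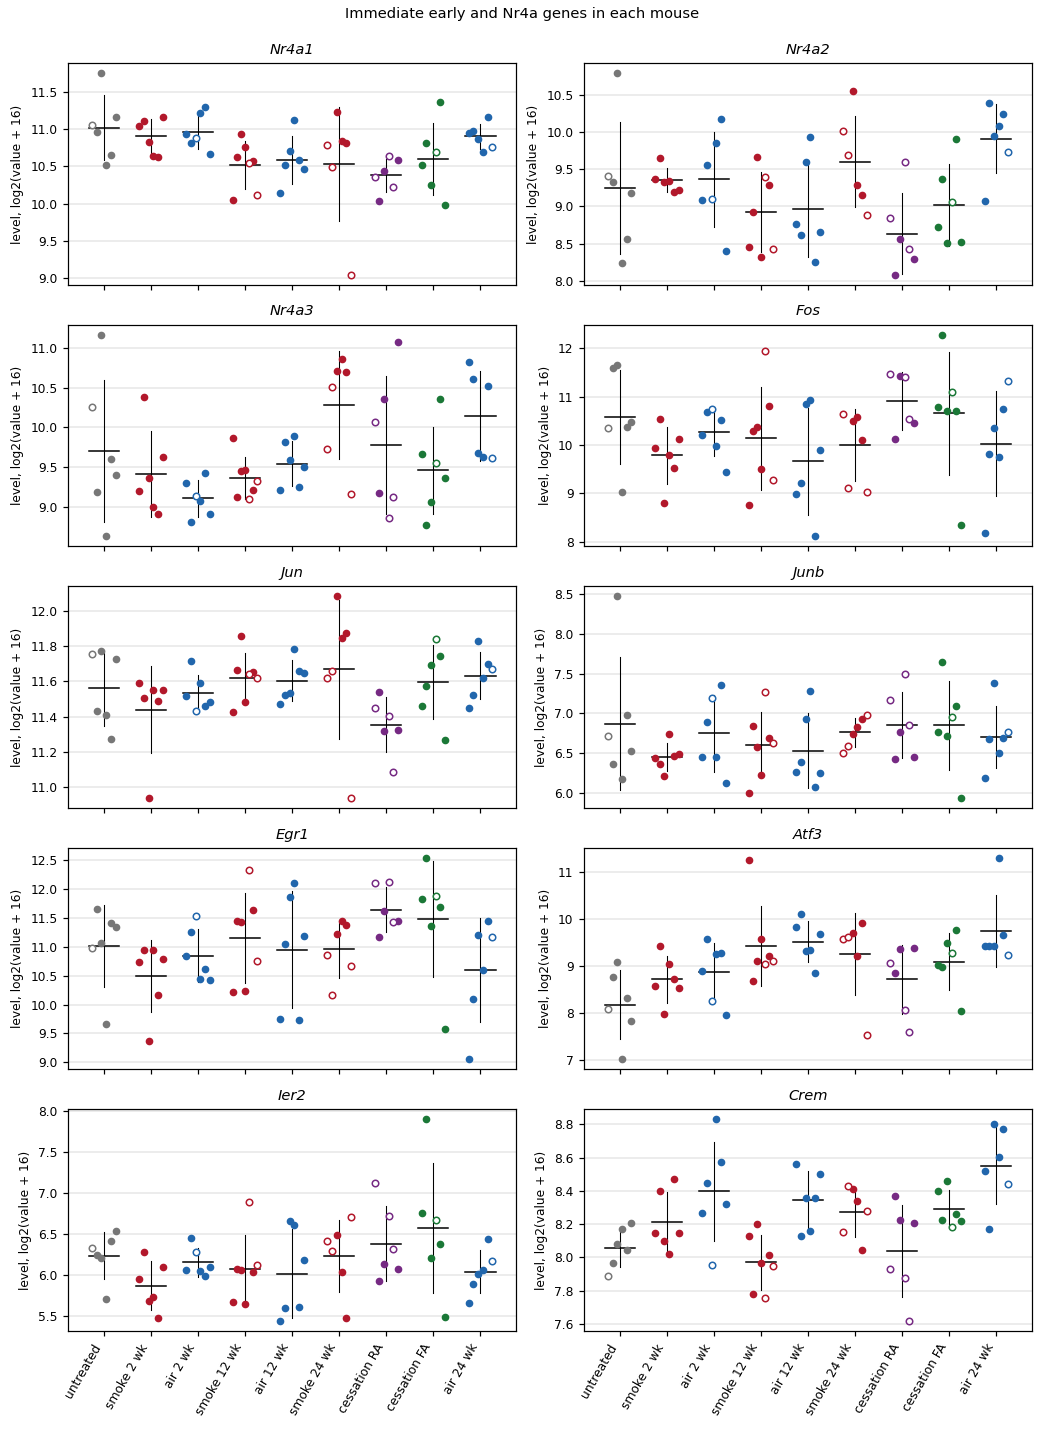
Level of each of the 10 genes, log2(value + 16), in each of 55 mice by group. Points are mice, open where an array was lymphocyte-high, horizontal bars are group means and vertical bars 1 SD. Fos and Egr1 spread over several log2 units inside single groups, while the mean of this Crem probe set is lower in smoke than in air at 2, 12 and 24 weeks, with overlapping mice and no passed test.

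Groups accounted for a smaller share of the variance than mice did. That share was 9.73% for Junb, 17.4% for Fos, 31.4% for Nr4a2 and 49.2% for Crem, beside a median of 21.3% over all genes. In the order of the 9 group means no gap between neighbours was larger than the within-group SD, in any of the 10 genes. Each such gap is only a part of the span of the means, so this does not show the groups to be alike. From highest to lowest mean the span was 0.58 for Crem, 1.56 for Atf3, 1.28 for Nr4a2 and 0.42 for Junb. Their within-group SDs were 0.20, 0.70, 0.59 and 0.47. Crem, the cAMP-responsive modulator, was the 1 member of 10 that differed among the 9 groups in limma's moderated F test (adjusted p = 0.0022). That test passed 11.1% of all genes. Atf3 (adjusted p = 0.057), Nr4a2 (0.085) and Nr4a3 (0.098) did not pass it. At an unadjusted p under 0.05 there were 5 of 10 members, beside 28.4% of genes.

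Some mice were high or low in several members at once. Replicate 3 of the untreated mice held the highest level of all 55 mice for Nr4a1 (11.75), Nr4a2 (10.79), Nr4a3 (11.17) and Junb (8.47), and 7 of its 10 members lay over 1 SD above the group mean. Replicate 2 of cessation FA was the highest mouse for Fos (12.28), Egr1 (12.54) and Ier2 (7.90). At the other end, 8 members lay over 1 SD below the group mean in replicate 4 of the untreated mice, 7 in replicate 6 of cessation FA and 6 in replicate 6 of smoke for 24 weeks. The last of these was also the array with the highest lymphocyte mean, 11.8.

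The promoters of the 3 Nr4a receptors are shown here because Nr4a1 and Nr4a2 moved together between mice. Their 300-base windows, 250 bases before to 50 after the start, are RefSeq sequences of build GRCm38.p6. Capitals mark the core of the cAMP response element, TGACG or its reverse complement CGTCA, on either strand. Nr4a1 lies at chr15:101266596-101266895 on the + strand, Nr4a2 at chr2:57123954-57124253 on the - strand and Nr4a3 at chr4:48045055-48045354 on the + strand, and Fos, at chr12:85473640-85473939 on the + strand, is set beside them.
Nr4a1: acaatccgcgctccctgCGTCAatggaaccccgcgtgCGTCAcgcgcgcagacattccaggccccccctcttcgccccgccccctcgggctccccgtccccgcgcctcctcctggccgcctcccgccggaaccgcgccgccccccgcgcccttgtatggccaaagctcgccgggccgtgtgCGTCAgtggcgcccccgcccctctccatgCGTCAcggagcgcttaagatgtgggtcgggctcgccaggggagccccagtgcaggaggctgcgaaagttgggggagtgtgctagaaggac
Nr4a2: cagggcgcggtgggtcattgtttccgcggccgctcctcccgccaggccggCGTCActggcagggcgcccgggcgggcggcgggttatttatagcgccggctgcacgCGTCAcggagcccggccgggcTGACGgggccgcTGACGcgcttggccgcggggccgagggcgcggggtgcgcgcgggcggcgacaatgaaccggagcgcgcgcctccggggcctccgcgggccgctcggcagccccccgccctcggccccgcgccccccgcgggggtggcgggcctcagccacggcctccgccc
Nr4a3: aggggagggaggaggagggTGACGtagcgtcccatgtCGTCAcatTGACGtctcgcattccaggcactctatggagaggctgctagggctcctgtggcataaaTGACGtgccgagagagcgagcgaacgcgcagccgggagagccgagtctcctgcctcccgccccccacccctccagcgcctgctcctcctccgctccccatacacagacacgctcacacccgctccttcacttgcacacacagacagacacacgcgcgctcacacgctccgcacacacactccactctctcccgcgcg
Fos: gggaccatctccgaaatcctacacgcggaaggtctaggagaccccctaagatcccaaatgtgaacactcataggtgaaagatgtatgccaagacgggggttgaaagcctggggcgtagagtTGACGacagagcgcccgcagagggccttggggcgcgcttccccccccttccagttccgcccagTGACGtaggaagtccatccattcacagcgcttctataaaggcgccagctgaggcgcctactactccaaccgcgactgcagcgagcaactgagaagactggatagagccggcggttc
This core occurred 4 times in each Nr4a window, 2 times in that of Fos, 1 time in those of Atf3 and Junb and not in that of Jun. At least 1 core was in 20.8% of the 32851 RefSeq promoter windows of this length, at least 2 in 5.01% and at least 4 in 0.231%. The full element TGACGTCA (1.79% of windows), the CArG box (1.63%), AAAGGTCA, the response element of Nr4a monomers (1.51%), and the AP-1 sites TGAGTCA or TGACTCA (5.2%) were in none of these 7 windows. The core lies inside the full element, and a match describes letters only. Sites outside these windows were not searched, so a motif absent here may lie farther from the start. Egr1, Ier2 and Crem were not matched in this table.

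Nr4a2 (Entrez 18227), a receptor that contraction and cAMP induce quickly, was lower in the RA cessation arm than in the 24-week air group. Its level ran from 8.08 through a median of 8.49 to 9.60 in cessation RA and from 9.08 through 10.01 to 10.39 in air for 24 weeks. Of the 6 RA mice 5 lay below every air mouse. The means were 8.64 ± 0.54 in cessation RA and 9.91 ± 0.47 in air for 24 weeks (SD, n = 6 each), a 2.42-fold fall, by 1.28 ± 0.33 (SE) on the log2 scale (limma adjusted p = 0.029). Without the lymphocyte-high arrays, which left 3 RA and 5 air mice, the difference was -1.64 ± 0.43 (SE, adjusted p = 0.026). Leaving out 1 mouse ended the call for replicates 2, 4 and 5 of air (adjusted p = 0.082, 0.063 and 0.066) and for replicates 2, 3, 5 and 6 of RA (adjusted p = 0.094, 0.059, 0.059 and 0.057), with differences between -1.47 and -1.17 over all 12 such fits.

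Of the 5 other Nr4a2 probe sets 3 followed the main one between mice, with r of 0.94, 0.96 and 0.83 in turn, and their differences between cessation RA and air were -1.67, -1.19 and -0.96. The remaining ones had r of 0.58 and 0.31 and differences of -0.35 and -0.16. None of the 5 passed among all 45037 probe sets, of which only 286 did. The mean of all 6 differed by -0.93 ± 0.27 (SE) and did not pass (adjusted p = 0.062).

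Nr4a1 (Entrez 15370), the receptor Nur77, ran from 10.04 to 10.64 with a median of 10.40 in cessation RA and from 10.70 to 11.16 with a median of 10.91 in air for 24 weeks. All 6 RA mice lay below all 6 air mice, as they did in 1.52% of all genes. The difference was -0.52 ± 0.22 (SE) and did not pass (adjusted p = 0.26). A fit of these 2 groups alone gave adjusted p = 0.042 for Nr4a1, and in that fit Crem no longer passed (adjusted p = 0.10). In smoke for 24 weeks Nr4a1 ran from 9.05 through 10.80 to 11.23, the low end being the lymphocyte-high replicate 6.

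Nr4a3 (Entrez 18124), the receptor NOR-1, was higher at 24 weeks than at 2 weeks of air, at 9.61 to 10.82 with a median of 10.10 against 8.81 to 9.42 with a median of 9.10. All 6 mice of 24 weeks lay above all 6 of 2 weeks, as they did in 0.793% of genes. The difference of 1.04 ± 0.33 (SE) did not pass (adjusted p = 0.22). It averaged 10.28 ± 0.68 in smoke for 24 weeks, 9.78 ± 0.87 in cessation RA, 9.46 ± 0.55 in cessation FA and 10.14 ± 0.56 in air for 24 weeks (SD, n = 6 each), and these ranges overlapped. Without the lymphocyte-high arrays Nr4a3 ran from 10.69 to 10.87 in smoke (n = 3) and from 8.76 to 10.36 in cessation FA (n = 5). Cessation RA and air still overlapped smoke in that set of mice. The share of all genes in which smoke and FA lie apart there was not counted. Nr4a3 did not pass between smoke and FA in those mice. Of 17 alternatives it passed in 1, with array weights. Its 2 other probe sets followed it with r of 0.43 and 0.15 only.

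Fos (Entrez 14281), the best known immediate early gene, overlapped widely between all groups. It ran from 10.12 through 10.97 to 11.47 in cessation RA, from 8.35 through 10.75 to 12.28 in cessation FA and from 8.18 through 10.08 to 11.32 in air for 24 weeks. The differences from air were 0.88 and 0.63, with an SE of 0.52 each, and neither passed (adjusted p = 0.46 and 0.87). In smoke it averaged 9.79 ± 0.59 at 2 weeks (n = 6), 10.14 ± 1.07 at 12 weeks (n = 7) and 10.00 ± 0.74 at 24 weeks (n = 6). In air it averaged 10.27 ± 0.50, 9.67 ± 1.10 and 10.03 ± 1.08 at the same times (SD, n = 6 each). With smoke it was lower than air at 2 weeks by 0.47 and higher at 12 weeks by the same amount, with SEs of 0.52 and 0.50, so these differences were within the error.

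Jun (Entrez 16476), the main partner of Fos, varied little. It ran from 11.08 through 11.36 to 11.54 in cessation RA and from 11.45 through 11.64 to 11.83 in air for 24 weeks, and 5 of 6 RA mice lay below every air mouse. The difference was -0.28 ± 0.12 (SE, adjusted p = 0.26). In smoke for 24 weeks Jun ran from 10.94 through 11.75 to 12.08, and 5 of the 6 mice lay above every RA mouse while the lymphocyte-high replicate 6 lay below them all. Smoke exceeded RA by 0.32 ± 0.12 (SE, adjusted p = 0.16), and by 0.46 without that replicate (adjusted p = 0.0079) and 0.54 without all lymphocyte-high arrays. Of 12 fits that each left out 1 mouse, 11 kept it short of the threshold, as did 15 of 17 alternatives. The second Jun probe set had r of 0.52 with this one between mice.

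Junb (Entrez 16477), an AP-1 subunit that opposes Jun at many targets, averaged 6.60 ± 0.30 over smoke and 6.66 ± 0.43 over air of all times, a difference of -0.05 ± 0.15 (SE). Its group means lay between 6.45 in smoke for 2 weeks and 6.87 in untreated mice, a span of 0.42 that was smaller than its within-group SD of 0.47.

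Atf3 (Entrez 11910), a stress-induced repressor, had its lowest mean in untreated mice and its highest in air for 24 weeks. In air it averaged 8.86 ± 0.63 at 2 weeks, 9.52 ± 0.44 at 12 weeks and 9.74 ± 0.77 at 24 weeks, after 8.18 ± 0.73 in untreated mice at week 0 (SD, n = 6 each). Air for 24 weeks exceeded air for 2 weeks by 0.88 ± 0.39 (SE, adjusted p = 0.37), which is not past the threshold. It ran from 7.59 through 8.96 to 9.39 in cessation RA and from 9.24 through 9.43 to 11.29 in air for 24 weeks. There 4 of 6 RA mice lay below every air mouse, and the difference was -1.02 ± 0.39 (SE, adjusted p = 0.20). Without the lymphocyte-high arrays the means were 9.20 in RA (n = 3) and 9.84 in air (n = 5). Replicate 4 of the air group, at 11.29, stood above the next air mouse at 9.65, and without it the difference was -0.71 (adjusted p = 0.52).

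Egr1 (Entrez 13653), which links growth and stress signals to transcription, had its highest mean in cessation RA. It ran from 11.16 through 11.53 to 12.11 in cessation RA, from 9.58 through 11.76 to 12.54 in cessation FA and from 9.05 through 10.88 to 11.45 in air for 24 weeks. The ranges overlapped, with 3 RA mice and 4 FA mice above every air mouse. Differences from air were 1.05 ± 0.42 and 0.89 ± 0.42 (SE) and did not pass (adjusted p = 0.22 and 0.69).

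Ier2 (Entrez 15936) averaged 6.39 ± 0.46 in cessation RA, 6.57 ± 0.79 in cessation FA and 6.04 ± 0.26 in air for 24 weeks (SD, n = 6 each). Its mean over all arrays, 6.18, lay near the filter level of 5.71, so its low values are close to the dim end of the arrays. Neither difference from air passed, at 0.34 ± 0.25 and 0.53 ± 0.25 (SE). Without the lymphocyte-high arrays Ier2 averaged 6.05 in cessation RA (n = 3), 6.55 in cessation FA (n = 5) and 6.02 in air (n = 5).

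Crem (Entrez 12916) had a lower mean in smoke than in air at each time, on its brightest probe set, but no smoke comparison passed. It was 8.02 to 8.47 with a median of 8.15 in smoke and 7.95 to 8.83 with a median of 8.38 in air at 2 weeks. At 12 weeks it was 7.76 to 8.20 with a median of 7.97 in smoke and 8.13 to 8.56 with a median of 8.36 in air. At 24 weeks it was 8.04 to 8.43 with a median of 8.31 in smoke and 8.17 to 8.80 with a median of 8.56 in air. Ranges overlapped at each time, and at 12 weeks 6 of 7 smoke mice lay below every air mouse. Differences were -0.18, -0.37 and -0.28, with an SE of 0.11 each, and their average was -0.28 ± 0.07 (SE, 1.21-fold lower). That average missed the threshold (adjusted p = 0.081). It passed without the lymphocyte-high arrays, at -0.30 (adjusted p = 0.036), and without replicate 3 of air at 2 weeks or replicate 2 of air at 24 weeks (adjusted p = 0.027 and 0.048).

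Crem was also lower in the RA cessation arm than in air for 24 weeks. It ran from 7.62 through 8.07 to 8.37 in cessation RA, from 8.18 through 8.24 to 8.46 in cessation FA and from 8.17 through 8.56 to 8.80 in air. The RA mean of 8.04 ± 0.28 stood against 8.55 ± 0.23 in air (SD, n = 6 each), a fall by 0.51 ± 0.11 (SE, adjusted p = 0.0079, 1.43-fold). The 3 lowest RA mice, at 7.62 to 7.93, were the 3 lymphocyte-high ones, and without such arrays the difference was -0.30 ± 0.12 (SE) and did not pass (adjusted p = 0.15). Nor did it pass in a fit of the 2 groups alone (adjusted p = 0.10). Over all arrays the median of Crem was 7.94 on the 12 lymphocyte-high arrays and 8.23 on the other 44, and mouse G8 had 7.84 on its lymphocyte-high array and 8.06 on the other. In the RA group the mean of the lymphocyte markers ran from 5.36 to 10.2, and in the air group from 5.52 to 9.84, with 11 of 11 measured markers higher in RA by a median of 1.48. With the lymphocyte mean as covariate Crem still passed, and 14 of 17 alternatives kept the call. The part of the lymphocyte markers in the Crem result was not tested beyond these fits.

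The probe sets of Crem disagreed. The other 3 had r of 0.25, 0.27 and 0.01 with the brightest one between mice, and their averaged smoke differences were 0.05, -0.13 and 0.00. In cessation RA they differed from air by -0.22, -0.30 and 0.03. The mean of all 4 did not pass in either comparison (-0.09, adjusted p = 0.52, and -0.25, adjusted p = 0.064). The annotation does not say which Crem transcripts each one reads.

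Set out by comparison, smoke changed none of the 10 genes past the threshold. Smoke against air passed 0 of 10 members at 2 weeks, where 0% of all genes were called, 0 of 10 at 12 weeks (0.0081% of genes) and 0 of 10 at 24 weeks (0.47% of genes). The smoke effect averaged over the 3 times passed 0 of 10 (0.0324% of genes). These counts are from limma, and at an unadjusted p under 0.05 they were 0, 1, 1 and 1 of 10, each time Crem, beside 2.06%, 1.86%, 24.6% and 9.17% of all genes. The median of the 10 differences was -0.17, -0.01, 0.00 and -0.03, against -0.02, -0.01, -0.03 and -0.02 over all genes. The change of the smoke effect between 2 and 24 weeks passed 0 of 10 members (0.0324% of genes), and 0 of 10 had an unadjusted p under 0.05, beside 18.6% of genes.

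Cessation was compared with the 24-week air group, which smoke for 24 weeks shares, so the 3 sets of differences are not independent. In cessation RA 2 of 10 members passed, Nr4a2 and Crem, both lower, beside 1.76% of all genes in either direction and 1.15% lower. At an unadjusted p under 0.05 there were 6 of 10, Nr4a1, Nr4a2, Jun, Atf3 and Crem lower and Egr1 higher, beside 13.7% of genes. In cessation FA 0 of 10 passed (0.081% of genes), and 5 of 10 had an unadjusted p under 0.05, Nr4a2, Nr4a3 and Crem lower and Egr1 and Ier2 higher, beside 7% of genes. Nr4a2 fell short of air by 0.90 ± 0.33 in FA (SE, adjusted p = 0.46), with 4 of 6 FA mice below every air mouse.

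**Figure D2:**
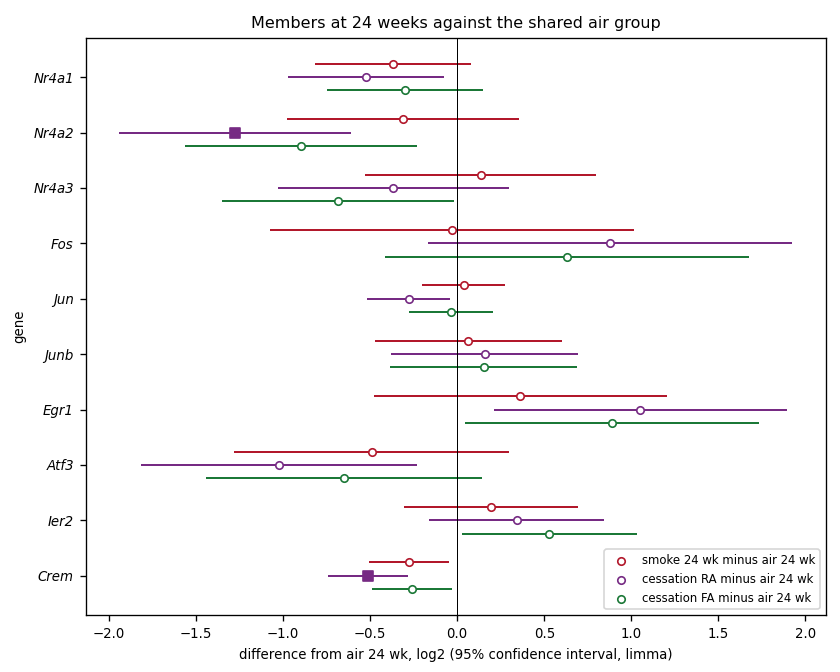
Difference of each gene from the 24-week air group on the log2 scale, with 95% confidence intervals from limma, for smoke for 24 weeks, cessation RA and cessation FA (6 mice each). Filled squares passed an adjusted p of 0.05, which only Nr4a2 (-1.28) and Crem (-0.51) in cessation RA did, and all 3 sets share the air mice.

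Cessation RA against cessation FA tested the difference between the arms directly and passed 0 of 10 members (0.0243% of genes). Crem and Jun, both lower in RA, had an unadjusted p under 0.05, as 4.15% of genes did. For Crem the difference was -0.045 without the lymphocyte-high arrays. Nr4a2 differed by -0.38 ± 0.33 (SE), so its call against air in RA alone does not show that the arms differ. Smoke for 24 weeks against cessation FA also passed 0 of 10 (3.55% of genes), with Nr4a3 higher by 0.82 ± 0.33 (SE, adjusted p = 0.11) the 1 member at an unadjusted p under 0.05 (27.7% of genes). Against cessation RA it passed 0 of 10 (2.34% of genes), with 3 of 10 at an unadjusted p under 0.05 (15.8% of genes). These were Nr4a2 by 0.96 ± 0.33, Jun by 0.32 ± 0.12 and Crem by 0.24 ± 0.11 (SE), all higher with continued smoke. For Crem the last value was -0.004 without the lymphocyte-high arrays.

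Sham exposure and time were examined in the air groups alone. Air for 2 weeks against untreated mice passed 0 of 10 members (0.518% of genes), with Crem at 8.40 ± 0.30 in air and 8.06 ± 0.12 in untreated mice (SD, n = 6 each) the 1 member at an unadjusted p under 0.05 (7.38% of genes). Its difference was 0.34 ± 0.11 (SE, adjusted p = 0.25), and 5 of 6 air mice lay above every untreated mouse. Air for 12 weeks against 2 weeks passed 0 of 10 (0.0081% of genes), and 0 of 10 had an unadjusted p under 0.05, beside 6.19% of genes. Air for 24 weeks against 2 weeks passed 0 of 10 (0.219% of genes), with Nr4a3 and Atf3 at an unadjusted p under 0.05 (11.8% of genes).

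Between mice of the same group most of these genes varied together. Levels less the group mean were correlated over the 44 mice without a lymphocyte-high array, for all 45 pairs, with permutation of mice within groups and adjustment over the pairs. Of the 45 Pearson correlations 41 were above 0, and 23 passed an adjusted p of 0.05, all of them positive, as did 21 Spearman correlations. Fos and Egr1 had the highest, with r = 0.91 and rho = 0.84 (adjusted permutation p = 0.00011 for r), and r = 0.88 without the 2 mice farthest out. Ier2 joined them, with r of 0.79 with Fos and 0.78 with Egr1, and 0.74 each without 2 mice. The smallest unadjusted p that 100000 permutations can give is 1e-05, and these 3 pairs reached it.

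**Figure D3:**
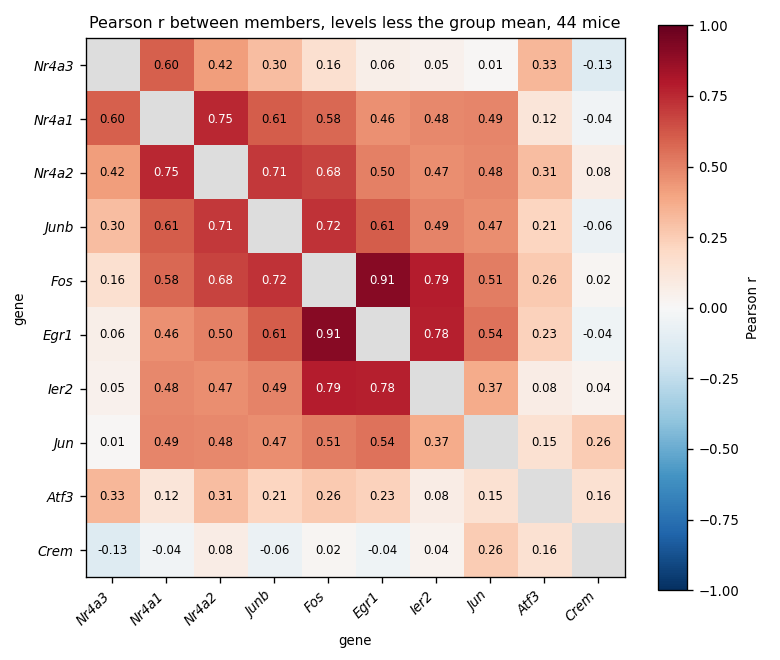
Pearson r between the 10 genes over 44 mice, after the group mean was taken from each level. Colour and number give r, with the highest value of 0.91 for Fos and Egr1, while Crem and Atf3 stay pale throughout.

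Nr4a1 and Nr4a2 were also close, with r = 0.75 and rho = 0.70 (adjusted permutation p = 0.00011 for r). Their r was 0.67 without the 2 mice farthest out. Nr4a2 was about as close to Fos, with r = 0.68 and rho = 0.72, and r = 0.67 without 2 mice. The 2 receptors were thus not a pair apart from Fos. Junb had r of 0.72 with Fos and 0.71 with Nr4a2. Nr4a3 followed Nr4a1 (r = 0.60, 0.44 without 2 mice) but had r of 0.16 with Fos and 0.06 with Egr1. With Nr4a2 its r was 0.42 (0.25 without 2 mice), while its rho of 0.24 did not pass (adjusted permutation p = 0.25). Jun had r between 0.37 and 0.54 with Nr4a1, Nr4a2, Fos, Junb, Egr1 and Ier2. No pair with Crem or Atf3 passed, their r lying between -0.13 and 0.33. Quantile normalization left r at 0.75 for Nr4a1 and Nr4a2, and with all 55 mice it was 0.69.

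**Figure D4:**
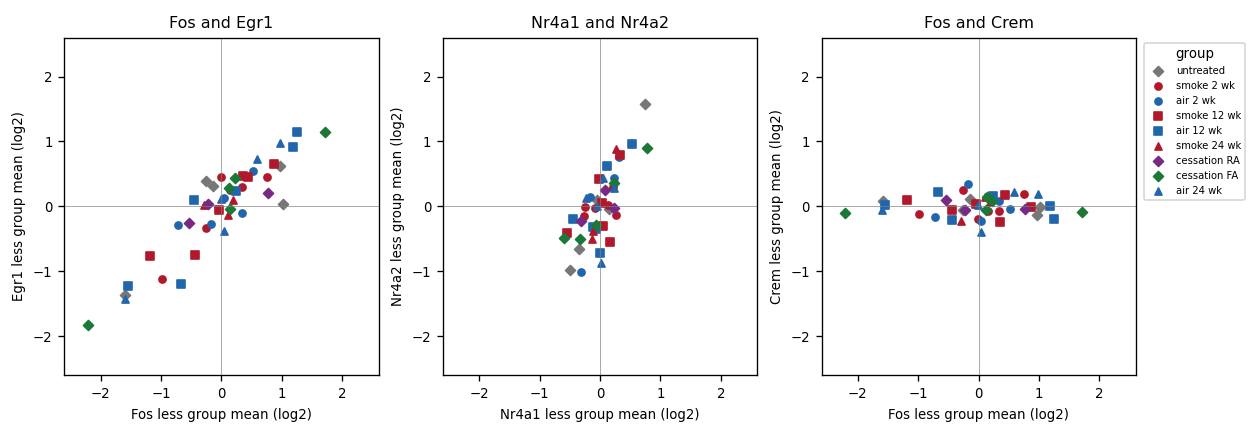
Levels less the group mean (log2) in each of 44 mice for Fos and Egr1, Nr4a1 and Nr4a2, and Fos and Crem coloured by group. Fos and Egr1 lie along a line in mice of all groups (r = 0.91), and Fos and Crem show none (r = 0.02).

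The 3 closest genes of each member were sought across all 12351 genes. For Fos they were Egr3 (r = 0.91), Egr1 and Btg2 (0.91), the last an antiproliferative early gene. For Egr1 they were Fos, Egr3 (0.86) and Ccn1 (0.85), a matricellular protein, and for Ier2 they were Fos, Egr1 and Egr3 (0.76). Junb lay closest to Hes1 (0.83), a Notch target, Btg2 (0.80) and Egr3 (0.77). Nr4a2 lay closest to Apold1 (0.86), an endothelial early gene, Sik1 (0.86), a kinase induced by cAMP, and Klf4 (0.85). For Nr4a1 they were Errfi1 (0.76), an inhibitor of the EGF receptor, Nr4a2 and Gadd45g (0.74). Nr4a3 had Coq10b (0.69), Tiparp (0.67) and Klf11 (0.64), and Jun had Adamts1 (0.74), Phlpp1 (0.73) and Ptger4 (0.71). Atf3 was closest to Uck2 (0.78), Mustn1 (0.76) and Rcan1 (0.73), and Crem to Dapp1 (0.67), Arhgap44 (0.66) and Slco5a1 (0.65).

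Of 38 other immediate early genes measured of 43 listed, 21 (55.3%) had r over 0.5 with Fos, beside 0.624% of 12341 genes that were not members. For Nr4a1 and Nr4a2 the count was 19 (50%) each, beside 1.16% and 0.875% of all genes. For Crem it was 1 (2.63%), for Nr4a3 1 and for Atf3 2, beside 0.405%, 0.324% and 0.859% of all genes. These shares are descriptions over the same 44 mice. Of 18 upstream factors of immediate early genes, such as Srf, the Mef2 factors and Creb1, none had r over 0.5 with Fos or Nr4a2. Atf3 had r over 0.5 with 5 of 11 heat shock genes (45.5%), beside 0.859% of all genes.

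Several early genes outside the 10 were lower in cessation RA over all mice. Calls between groups in this and the other gene lists were not repeated without the lymphocyte-high arrays. Of the 38 other immediate early genes 5 were lower and 0 higher in cessation RA than in air for 24 weeks, beside 1.15% of all genes lower, and their median difference was -0.08 against -0.01 over all genes. Klf10 averaged 11.58 ± 0.29 in cessation RA and 12.27 ± 0.23 in air (adjusted p = 0.0069), Gadd45g 9.26 ± 0.42 and 10.64 ± 0.40 (0.0098), Cebpb 10.29 ± 0.18 and 10.81 ± 0.17 (0.031) and Fosl2 10.12 ± 0.19 and 10.71 ± 0.35 (0.044; SD, n = 6 each). The fifth was Klf6, a zinc finger factor, at -0.35 ± 0.10 (SE, adjusted p = 0.044), named after its value was seen. Klf10 is a TGF-beta induced repressor, Gadd45g a growth arrest protein, Cebpb a factor of stress and fat cell programs and Fosl2 an AP-1 subunit. Smoke for 24 weeks exceeded cessation RA in 3 of 38, beside 2.34% of all genes called in either direction, Klf10 by 0.75, Sgk1 by 0.21 and Klf6 by 0.36. None of the 38 passed between smoke and air at any time, between cessation FA and air, or between the arms.

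Of 13 cAMP response genes 2 were lower in cessation RA than in air for 24 weeks, Per1 and Fosl2, and none higher, beside 1.15% of all genes lower, with a median of -0.32. Fosl2 is also counted among the early genes above and Per1 among the clock genes below. The lists share genes, so their counts are not independent. Of 12 glucocorticoid response genes 3 were lower, Arrdc2, Tsc22d3 and Mt2, and none higher, beside the same 1.15%, with a median of -0.37. Arrdc2, an arrestin-like protein, averaged 7.88 ± 0.40 in cessation RA and 10.58 ± 0.74 in air (SD, n = 6 each, adjusted p = 1.2e-05). Of 16 clock genes 4 were higher and 7 lower, beside 1.76% of all genes in either direction, and Per1, a period gene that cAMP also induces, fell to 7.44 ± 0.35 in cessation RA against 9.37 ± 0.29 in air (adjusted p = 4.7e-08). Npas2, a clock activator, averaged 8.18 ± 0.49 in cessation RA and 6.38 ± 0.25 in air, and Arntl, its relative, 9.90 ± 0.33 and 8.70 ± 0.35. Clock genes thus moved with the same pair of groups in which Nr4a2 and Crem passed. Their part in these results was not tested. Within groups 3 of 16 clock genes (18.75%) had r over 0.5 with Nr4a2, beside 0.875% of all genes. With Crem it was 0 of 16, beside 0.405% of all genes.

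The remaining lists were 18 upstream factors, 13 AP-1 and ATF partners, 11 heat shock genes and 8 glucose and glycogen genes known as Nur77 targets. None of these passed in cessation RA against air, beside 1.76% of all genes. With lists this short and so small a share, no call says little about them. Among the upstream factors Elk3, a ternary complex factor, had the lowest p (0.40 ± 0.12 SE, adjusted p = 0.062). Among the partners it was Jdp2, which pairs with Jun (-0.21 ± 0.09, adjusted p = 0.26). Among the heat shock genes it was Dnajb1 (-0.64 ± 0.18, adjusted p = 0.056), and among the Nur77 targets Phka1, a phosphorylase kinase subunit (-0.14 ± 0.07, adjusted p = 0.34). Smoke for 24 weeks exceeded cessation RA in Dnajb1 by 0.85 and in Jdp2 by 0.36 (adjusted p = 0.0048 and 0.018). Each was the 1 gene of its list that passed there, beside 2.34% of all genes in either direction.

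The number that ends each sample title, whose meaning the labels do not give, was tested as a slope within groups. Jun rose by 0.20 ± 0.05 (SE) per 100 of that number, the 1 member of 10 that passed (adjusted p = 0.0026), beside 25.9% of all genes in either direction and 15.3% upward. All 10 slopes were above 0, with a median of 0.22 against 0.00 over all genes, and they ranged from 0.00 for Atf3 to 0.36 for Egr1. Junb at 0.30 ± 0.13 and Nr4a1 at 0.23 ± 0.11 did not pass (adjusted p = 0.075 and 0.11), and 3 of 10 slopes had an unadjusted p under 0.05, beside 35.5% of genes. The second Jun probe set had r of 0.52 with the first and a slope of -0.13 ± 0.07 (SE), and the mean of both had a slope of 0.04. Beyond the probe sets used for each gene, 1 of Nr4a3 rose with the number (0.29 ± 0.07 SE, adjusted p = 0.0013 over all probe sets) and 1 of Crem fell (-0.22 ± 0.07, adjusted p = 0.022). Of all 45037 probe sets 9963 passed for this slope, so such calls are common and not particular to these genes. Of the 38 other immediate early genes 1 rose and 2 fell with the number.

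**Figure D5:**
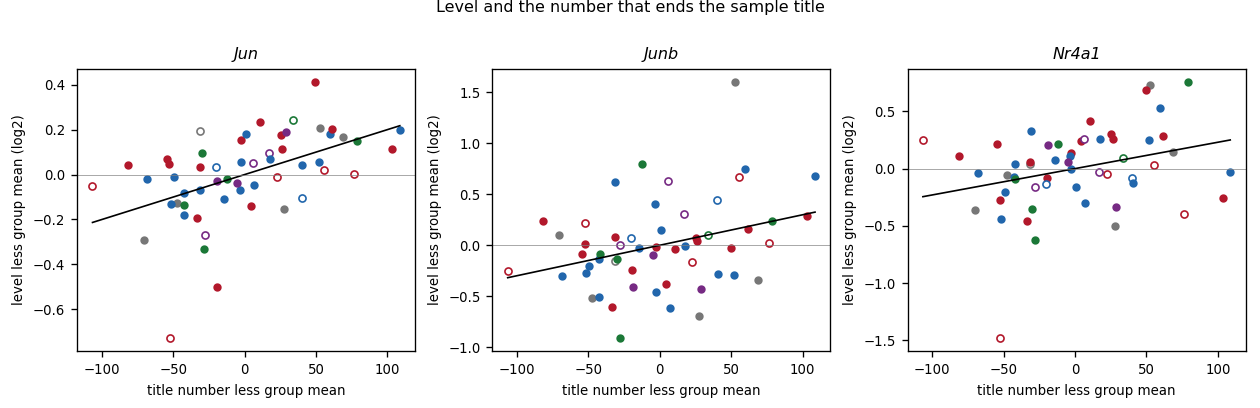
Level less the group mean (log2) of Jun, Junb and Nr4a1 against the title number less its group mean in each of 55 mice, coloured by group with lymphocyte-high arrays open and the fitted slope as a line. Jun rises by 0.20 per 100 of the number, and the mice scatter widely around each line.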

How the data were processed

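Expression arrays measured gastrocnemius RNA of 55 mice in 9 groups. The deposited values are intensities, 1 per probe set and array, on a linear scale. Summary and scaling of the probes by the authors: not given in the sources used here. Per the labels' protocols, RNA was amplified before labelling. The 45037 probe sets ran from -20.0 to 15890 with 0.46% below 0, and array medians lay between 62.5 and 77.5. Values were floored at -15 (5 values) and taken as log2(value + 16), so fold changes of dim genes are understated. Among probe sets 34945 had 1 gene symbol, 932 several and 9160 none. Each gene was read from its probe set of highest mean, and 12351 of 18193 genes above the 40th percentile (5.71) were tested.

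Groups came from the source labels, and the 2 arrays of mouse G8 were averaged. Replicates are mice. One limma fit over 9 groups (46 residual degrees of freedom) gave all contrasts, with Benjamini-Hochberg adjustment over all genes and a threshold of 0.05. The title number was fitted within groups. Correlations used permutation within groups. The code was tested on simulated data. The number of mice limits the precision, and the 2 arrays of mouse G8, of which 1 was lymphocyte-high, differed as well (Nr4a1 9.60 on that array and 10.64 on the other, Fos 8.67 and 9.89). Tools were R 4.3.3, limma 3.58.1, data.table (1.17.8), Python 3.11.15, numpy 2.4.6, scipy 1.17.1, pandas 2.3.3 and matplotlib 3.10.9. Alternatives covered the filter, pseudocount, probe sets, normalization, moderation, arrays used and single mice.

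The 10 genes and all lists were chosen with earlier results of these data known. All 10 are named, in each list up to 4 genes past the threshold or else those of lowest p, and for each member its 3 most alike genes.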

Additional observations from a re-analysis of the deposited data

Results flagged for a closer look

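Of 90 sets of mice, each 1 gene in 1 group, 8 held a mouse far from the others of its group, and chance alone gives about 1 in 20. In smoke for 24 weeks, replicate 6 was lowest for Nr4a1 at 9.05, with the next mouse at 10.49, and for Atf3 at 7.53, with the next at 9.22. Its array was lymphocyte-high, as was that of replicate 5 of smoke for 12 weeks, which was highest for Ier2 at 6.90 with the next mouse at 6.13. Replicate 3 of smoke for 2 weeks was lowest for Jun at 10.94, with the next at 11.49. Atf3 was far above the rest in replicate 1 of smoke for 12 weeks, at 11.24 against 9.57, and in replicate 4 of air for 24 weeks, at 11.29 against 9.65. Among untreated mice, replicate 3 was highest for Junb at 8.47, with the next at 6.97, and replicate 4 was lowest for Egr1 at 9.66, with the next at 10.98.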

How the results depend on the processing

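No paired analysis was possible because the replicate numbers only name mice in accession order and pair nothing. Under 17 alternatives, 0 of 10 members passed for smoke at 2, 12 and 24 weeks, cessation FA against air, RA against FA, air at 12 against 2 weeks and the change of the smoke effect. For cessation RA against air 24 weeks the count of 2 was 0 with the mean of each gene's probe sets and 1 without the lymphocyte-high arrays. With the 2 groups fitted alone it stayed 2, but these were Nr4a1 and Nr4a2, and Crem was lost. With array weights the count was 1 for averaged smoke, smoke 24 weeks against FA and against RA, air 2 weeks against untreated and air 24 against 2 weeks, 6 among 9 groups and 2 for the title slope. Without the lymphocyte-high arrays it was 1 for averaged smoke, smoke 24 weeks against RA and air 2 weeks against untreated, and 3 among 9 groups. Crem in smoke 24 weeks against RA then reversed, to -0.0040 (adjusted p = 0.99). With the lymphocyte mean as covariate it was 3 among 9 groups and 2 for the title slope. The title slope count was 0 with the mean of probe sets, and 2 with quantile normalization and without arrays outside the main run of identifiers. At an adjusted p under 0.1 it was 1 for averaged smoke, 4 among 9 groups and 2 for the title slope. Leaving out single mice gave 1 to 5 among 9 groups, 1 to 2 for the title slope, 0 to 1 for averaged smoke, 1 to 2 for RA against air and 0 to 1 for smoke 24 weeks against RA. The cause of these shifts was not tested.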
